A study of Mus musculus with 6 samples.

Results

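The basement membrane of the colon and the receptors that tie epithelial cells to it were followed across 38 genes: laminin chains, hemidesmosome components, integrins, collagen IV chains, nidogens, perlecan and dystroglycan. The genes were defined by a fixed list of symbols. Each was read from the probe set that names it alone in the platform annotation, and where a gene has more than 1 such probe set, the one chosen by the highest mean over all 6 arrays was used. Every one of the 38 listed genes was measured, each by 1 probe set, among 19936 genes on the array, so that the choice of probe set left nothing to select here. The knockout group was colon epithelium of male Sel1LΔIEC mice aged 8 weeks on the C57BL/6J background, with 3 arrays; these are Sel1Lflox/flox mice, with loxP sites around exon 6, that carry the transgene of B6.SJL-Tg(Vil-cre)997Gum/J, a Cre under the villin-1 promoter. The wild type group was colon epithelium of male wild type C57BL/6J mice of the same age, also with 3 arrays. The floxed allele came from Sel1ltm1e(KOMP)Wtsi ES cells, and its lacZ-neo cassette was deleted with βActin-FLPe mice. The labels do not say whether the wild type mice carried the floxed allele or the Cre. Villin-driven Cre acts in epithelial cells, whereas RNA was taken from the whole isolated epithelium. Values are log2 levels from Affymetrix arrays made by the authors with RMA, a method that subtracts background, puts all arrays on a common distribution and merges the probes of each probe set into 1 value. Probe sets differ in brightness for the same amount of RNA, so levels were compared between genotypes and not between genes.

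A basement membrane is a sheet of extracellular matrix on which an epithelium rests. Laminins are trimers of an alpha, a beta and a gamma chain that assemble inside the endoplasmic reticulum (ER) before they are secreted, and they polymerise at the cell surface into the first layer of the sheet. Collagen IV forms a second network, and nidogens and perlecan link both. Epithelial cells hold on to laminin through integrins, above all through the integrin made of Itga6 and Itgb4, which sits in hemidesmosomes and connects to keratin filaments, and through dystroglycan. In the gut, epithelial cells make part of the laminins, and cells of the underlying mesenchyme make much of the collagen IV, the nidogens and other laminin chains. Sel1L is the adaptor of the Hrd1 ubiquitin ligase that removes misfolded proteins from the ER.

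Sel1l read 8.70, 9.06 and 8.66 in the knockout arrays, against 9.45, 9.67 and 9.54 in the wild type arrays. It fell by 0.74 ± 0.11 (SE) on the log2 scale (limma, adjusted p = 0.0182), and the exact two-sided permutation test gave p = 0.1, the smallest that 3 arrays against 3 allow. That call ended without knockout array 1 (adjusted p = 0.0875 by limma), knockout array 3 (0.0603), wild type array 1 (0.0550) or wild type array 2 (0.0766). Any pair of arrays correlated at 0.993 to 0.997 over all genes, as a description, and none was a copy of another. Whether every array came from its own mouse is not stated in the labels; the spread behind each p-value is that of these arrays and may be technical.

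The members called as changed were all laminin chain genes. Of the 38 genes, 3 fell in the knockout and none rose, at an adjusted p under 0.05 over all 19936 genes (limma's moderated test with Benjamini-Hochberg adjustment), and they were Lamb3, Lama3 and Lamb2. That is 7.89% of the members, against 1.63% of all genes called in either direction and 0.712% called lower. An unadjusted p under 0.05 was found for 11 members, 4 higher and 7 lower, or 28.9%, against 13.3% of all genes. The arrays of the 2 genotypes did not overlap in 12 members, 3 higher and 9 lower, or 31.6%, against 19.4% of all genes. The median difference, knockout minus wild type, was -0.04 over the members and 0.02 over all genes. Differences ran from -0.70 for Lama3 to 0.23 for Itga7. In simulated data the fit called 7.46% of changes of 0.25 on the log2 scale, so a member without a call may still differ. In whole epithelium, fewer cells of a type and less RNA per cell cannot be told apart.

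**Figure D1:**
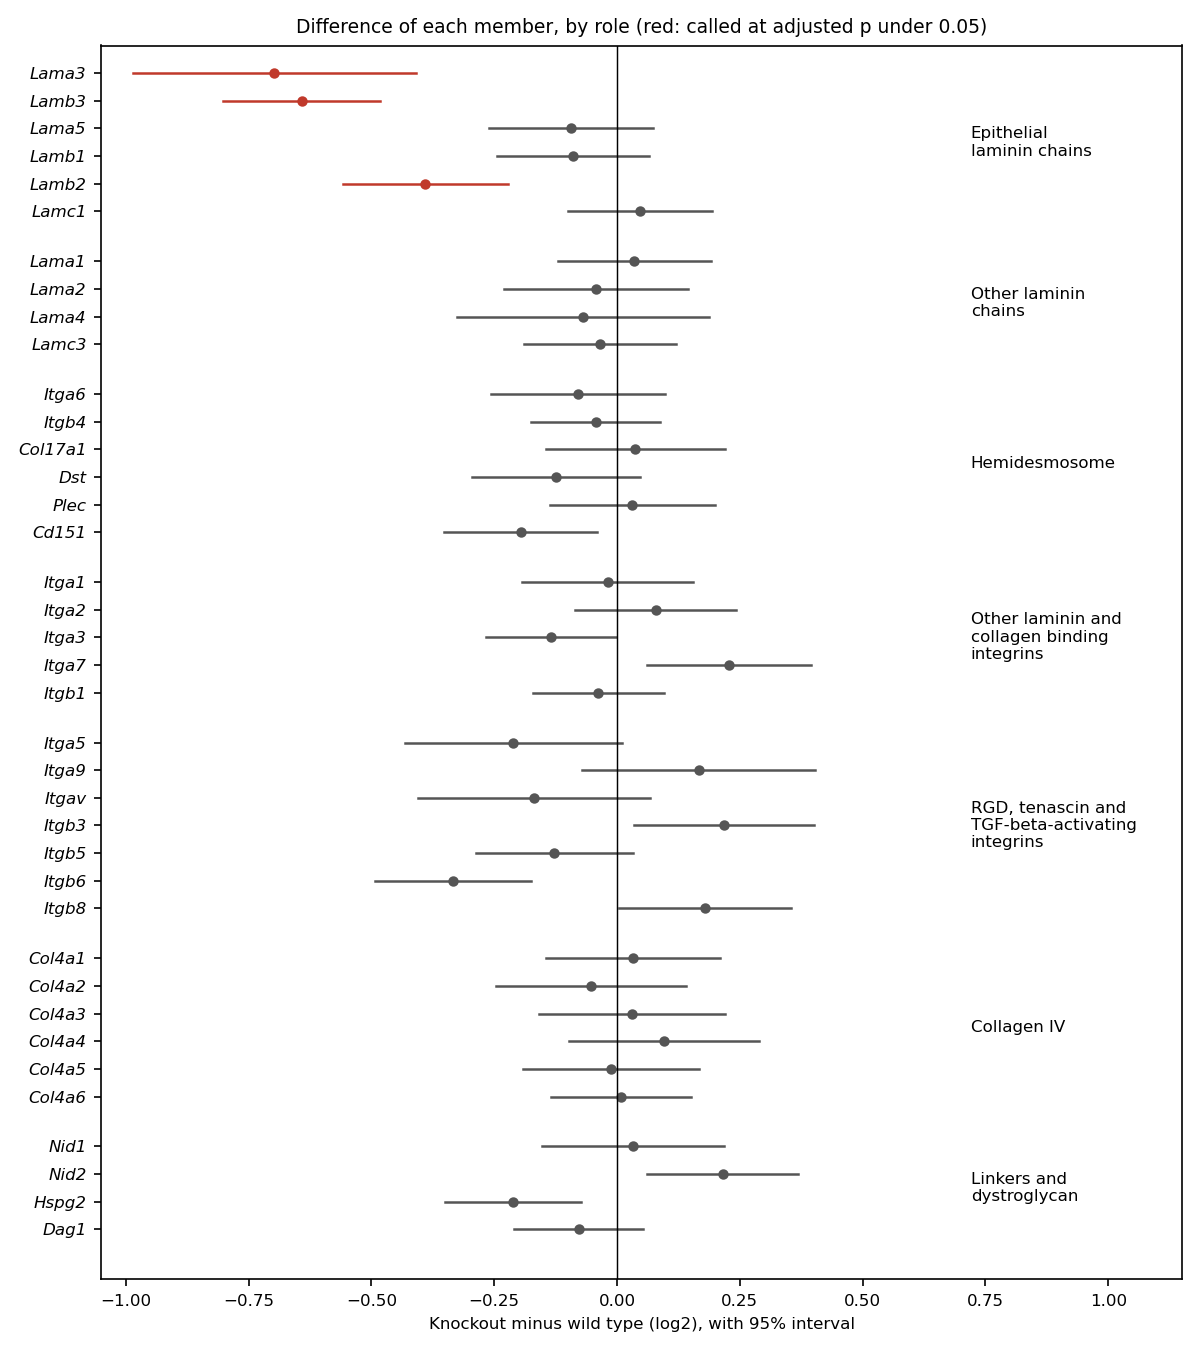
Knockout minus wild type difference on the log2 scale (horizontal axis) for each of the 38 genes, ordered by role, with points at the estimate and bars for the 95% interval from limma. Genes in red were called at an adjusted p under 0.05: Lama3, Lamb3 and Lamb2 lie to the left of 0, and every other gene is grey.

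Lamb3 encodes the beta chain of the laminin that anchors hemidesmosomes. It read 9.06, 9.25 and 9.11 in the knockout arrays, against 9.84, 9.74 and 9.78 in the wild type arrays. Every knockout array lay below every wild type array, by far more than the spread within either genotype. The level averaged 9.14 ± 0.099 in the knockout and 9.78 ± 0.050 in wild type (SD, n = 3 each). Lamb3 fell by 0.64 ± 0.070 (SE), to 0.641 times the wild type level on the linear scale (limma, adjusted p = 0.00656). The call held with each array left out, with an adjusted p of 0.0155 to 0.0389.

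Lama3 encodes the alpha chain of the same laminin. Its knockout arrays read 7.73, 8.04 and 8.20, and its wild type arrays 8.85, 8.67 and 8.54. The genotypes did not overlap, and the knockout arrays were spread more widely than those of Lamb3. The means were 7.99 ± 0.24 in the knockout and 8.69 ± 0.16 in wild type (SD, n = 3 each), so Lama3 fell by 0.70 ± 0.13 (SE), to 0.617 times wild type (limma, adjusted p = 0.0361). Lama3 has a short and a long transcript from separate promoters, which 1 probe set for the gene does not tell apart. The call ended without knockout array 1 (adjusted p = 0.0908), knockout array 2 (0.104), wild type array 1 (0.126) or wild type array 2 (0.116), with differences between -0.80 and -0.57 over all 6 such fits. It also ended with quantile normalization, at an adjusted p of 0.0508.

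Lamb2, a beta chain that takes the place of Lamb1 in several laminins, read 7.07, 6.89 and 7.04 in the knockout arrays, against 7.43, 7.30 and 7.44 in the wild type arrays. The genotypes lay apart, and wild type array 2 and knockout array 2 were the lowest of their groups. Lamb2 fell by 0.39 ± 0.073 (SE), to 0.763 times wild type (limma, adjusted p = 0.0425). Leaving out any array ended this call, with adjusted p of 0.102, 0.126 and 0.0993 without knockout arrays 1, 2 and 3 and of 0.156, 0.0784 and 0.110 without wild type arrays 1, 2 and 3. Lamb1, the beta chain found in most early basement membranes, differed by -0.09 (95% interval -0.24 to 0.06) and overlapped between genotypes. Within each array Lamb2 minus Lamb1 was 1.27, 1.12 and 1.13 in the knockout, against 1.47, 1.46 and 1.48 in wild type. That pair was picked after its values were seen, and its difference between genotypes, -0.30, was not tested.

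The other chains that epithelia assemble into laminin were not called. Lama5, the alpha chain of the main laminin of adult epithelia, read 6.97, 6.99 and 7.13 in the knockout arrays, against 7.08, 7.07 and 7.22 in wild type, a difference of -0.09 (95% interval -0.26 to 0.07, adjusted p = 0.651 by limma). Lamc1, the gamma chain shared by most laminins, differed by 0.05 (95% interval -0.10 to 0.19). The 3 called members are thus among these 6 chains, a group drawn up with earlier results known, beside 0.712% of all genes called lower. The median of the 6 chains was -0.24.

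Lama3, also a called member, is not shown in this part. The bases before the annotated starts of the other called members, Lamb3 and Lamb2, are shown because ER stress factors bind known short motifs. They are RefSeq's, build GRCm38.p6, 250 bases that end just before the start, on the plus strand, at chr1:193301744-193301993 for Lamb3 and chr9:108479612-108479861 for Lamb2. Capitals mark any match, on either strand, to CCAAT or CCACG, which together form the ER stress element, or to TGACG, a core of sites for ATF6, CREB3 family and XBP1 proteins.
Lamb3: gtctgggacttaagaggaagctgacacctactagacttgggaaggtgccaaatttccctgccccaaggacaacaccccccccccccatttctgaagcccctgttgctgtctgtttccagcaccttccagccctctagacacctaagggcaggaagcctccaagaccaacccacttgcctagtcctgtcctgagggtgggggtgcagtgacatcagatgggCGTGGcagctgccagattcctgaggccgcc
Lamb2: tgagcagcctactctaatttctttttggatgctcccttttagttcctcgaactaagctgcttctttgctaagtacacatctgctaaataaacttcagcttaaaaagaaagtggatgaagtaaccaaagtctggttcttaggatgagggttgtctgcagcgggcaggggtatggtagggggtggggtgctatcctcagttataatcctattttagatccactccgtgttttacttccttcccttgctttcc
The Lamb3 stretch holds 1 match, to CCACG on the minus strand, whose first printed base lies 30 bases before the start. The Lamb2 stretch holds none of these letters, nor does the stretch before a second annotated start of Lamb3. CCACG occurred in 28.3% of 32851 such stretches over all genes, CCAAT in 33.8% and TGACG in 17.8%. Of the 26 members with a stretch in the table, 9 held CCACG, 10 held CCAAT and 7 held TGACG in at least 1 stretch, which is 34.6%, 38.5% and 26.9% of them. Over all 27025 genes in the table the shares counted in the same way were 31.0%, 37.5% and 19.8%. These matches describe the letters and are not binding sites.

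Laminin chains that serve mesenchyme, muscle, vessels or embryonic tissue were not called, and every interval included 0. Lama4, a chain of vessel basement membranes, had the largest difference of these, with 4.91, 5.36 and 5.07 in the knockout arrays against 5.20, 5.09 and 5.25 in wild type. Its arrays overlapped, and its difference of -0.07 (95% interval -0.33 to 0.19) turned to 0.04 without knockout array 1. Lama1, an early embryonic chain, differed by 0.04, Lama2, the chain of muscle and nerve, by -0.04, and Lamc3 by -0.03. The median of these 4 genes was -0.04, and it turned to 0.02 without knockout array 1.

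None of the 6 hemidesmosome genes was called. Itgb4 encodes the beta subunit that binds laminin outside the cell and the plakins inside it. It read 10.25, 10.33 and 10.29 in the knockout arrays, against 10.33, 10.30 and 10.36 in wild type, with overlapping groups and a difference of -0.04 (95% interval -0.17 to 0.09). Its partner Itga6 read 10.52, 10.43 and 10.45 in the knockout arrays, against 10.40, 10.60 and 10.64 in wild type, a difference of -0.08 (95% interval -0.26 to 0.10). The intervals of both subunits thus end short of the estimates for Lama3 and Lamb3. Within each array Lamb3 minus Itgb4 was -1.19, -1.08 and -1.18 in the knockout, against -0.50, -0.57 and -0.59 in wild type. Lama3 minus Itga6 was -2.79, -2.39 and -2.24 in the knockout, against -1.54, -1.92 and -2.10 in wild type. Ligand minus receptor was thus lower in each knockout array than in any wild type array for both pairs. The size of such a value depends on the probes, and the pairs were picked after their values were seen and carry no test.

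Cd151, the tetraspanin that associates with laminin-binding integrins, had the largest difference in the hemidesmosome group. It read 9.80, 9.87 and 9.68 in the knockout arrays, against 9.99, 10.01 and 9.94 in wild type, with no overlap. The difference of -0.20 ± 0.068 (SE) did not pass the test over all genes (limma, unadjusted p = 0.0196, adjusted p = 0.253). The plakin genes Dst and Plec, whose proteins join the integrin to keratin filaments, differed by -0.12 (95% interval -0.30 to 0.05) and 0.03 (95% interval -0.14 to 0.20). Both have neuronal, muscle and epithelial transcripts, which a probe set for the whole gene does not separate. Col17a1, the collagen that spans the membrane in stratified epithelia, differed by 0.04. The median of the group was -0.06, with 4 of 6 differences below 0, and it was -0.03 without wild type array 3.

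**Figure D2:**
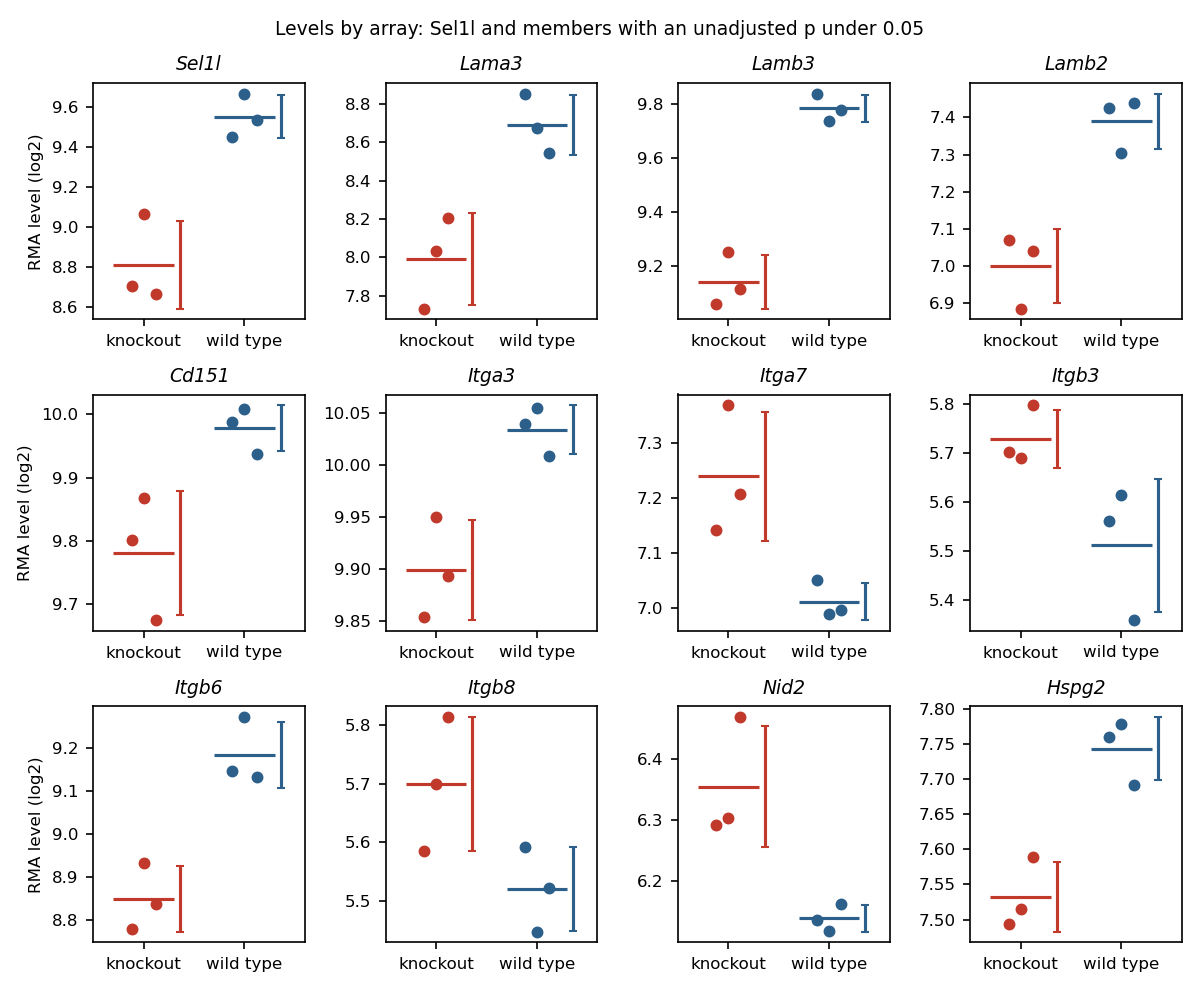
RMA log2 level (vertical axis, separate scale in each panel) by array for Sel1l and the 11 members with an unadjusted p under 0.05, knockout in red on the left and wild type in blue on the right. Points are arrays, horizontal lines means and vertical bars the SD of 3 arrays; the genotypes are apart in every panel except that of Itgb8, where knockout array 1 at 5.59 lies just below wild type array 1.

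Among the other integrins that bind laminin or collagen, no gene was called. Itga3, which pairs with Itgb1 as a laminin receptor of epithelial cells, read 9.85, 9.95 and 9.89 in the knockout arrays, against 10.04, 10.05 and 10.01 in wild type. These groups did not overlap, but the difference of -0.13 ± 0.058 (SE) was small (limma, unadjusted p = 0.0475, adjusted p = 0.367). Itga7, a laminin receptor known mainly from muscle, read 7.14, 7.37 and 7.21 in the knockout arrays, against 7.05, 6.99 and 6.996 in wild type. It had the most positive difference of the 38 genes, 0.23 ± 0.073 (SE), again without overlap and without a call (adjusted p = 0.211 by limma). The collagen receptor subunits Itga1 and Itga2 differed by -0.02 and 0.08, and their common partner Itgb1 by -0.04 (95% interval -0.17 to 0.10). Lmod1, 1 of 10 smooth muscle markers, was also higher without overlap, by 0.20 (limma, unadjusted p = 0.00913, adjusted p = 0.178). Of those 10 markers 6 differed above 0 and 4 below, with a median of 0.03 and Synpo2 lowest at -0.15. Whether smooth muscle content took part in the Itga7 difference was not tested. The median of the 5 genes was -0.02, and it turned to 0.02 without knockout array 3 or wild type array 3 and to 0.004 without wild type array 1.

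Integrins that bind RGD sequences or tenascin, or that activate TGF-beta, differed in both directions. Itgb6, the beta subunit of an epithelial integrin that activates latent TGF-beta, had the largest difference among the members that were not called. It read 8.78, 8.93 and 8.84 in the knockout arrays, against 9.15, 9.27 and 9.13 in wild type, with no overlap. The difference was -0.33 ± 0.069 (SE), 0.793 times wild type, with an adjusted p of 0.0612 by limma. It passed in 4 of the 13 processing alternatives, where its adjusted p lay between 0.0197 and 0.201 by limma. Itgav, the alpha partner of Itgb6, differed by -0.17 (95% interval -0.41 to 0.07), and wild type array 3, at 8.51, lay below 2 of the knockout arrays.

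Itgb3 and Itgb8, which also pair with Itgav, had differences above 0. Itgb3 read 5.70, 5.69 and 5.80 in the knockout arrays, against 5.56, 5.61 and 5.36 in wild type, a difference of 0.22 ± 0.080 (SE) without a call (adjusted p = 0.280 by limma). Itgb8 read 5.59, 5.70 and 5.81 in the knockout arrays, against 5.59, 5.45 and 5.52 in wild type, a difference of 0.18 ± 0.076 (SE) (adjusted p = 0.361 by limma). Knockout array 1 of Itgb8 fell within the wild type range, whereas the groups of Itgb3 did not overlap. Itga5, the alpha subunit of the main fibronectin receptor, differed by -0.21 (95% interval -0.43 to 0.01) without overlap, Itgb5 by -0.13 and Itga9 by 0.17. The median of the 7 genes was -0.13, or -0.08 without knockout array 1 or wild type array 2, and 4 of the 7 differences were below 0.

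Collagen IV showed no call among its 6 chains, and no chain had groups that lay apart. Differences ran from -0.05 for Col4a2 to 0.10 for Col4a4, with a median of 0.02. That median turned to -0.04 without knockout array 3, to -0.008 with quantile normalization and to -0.003 with arrays centred on their medians. Col4a4, the chain with the largest difference, read 6.19, 6.24 and 6.40 in the knockout arrays, against 6.16, 6.07 and 6.30 in wild type (95% interval -0.10 to 0.29). Its difference was 0.03 without knockout array 3, 0.04 without wild type array 2 and 0.16 without wild type array 3. Col4a1 and Col4a2, which encode the chains of the most widespread collagen IV trimer, differed by 0.03 (95% interval -0.15 to 0.21) and -0.05 (95% interval -0.25 to 0.14). These neighbours are transcribed away from each other from starts 21 bases apart in RefSeq, and knockout array 3 had the highest level of the 6 arrays for both, at 6.70 and 6.54. Col4a3, Col4a5 and Col4a6, chains with a narrower distribution, differed by 0.03, -0.01 and 0.01.

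The linkers were not called either and pointed in different directions. Hspg2, which encodes the heparan sulfate proteoglycan perlecan, read 7.49, 7.51 and 7.59 in the knockout arrays, against 7.76, 7.78 and 7.69 in wild type. The groups did not overlap, with a difference of -0.21 ± 0.060 (SE) (limma, unadjusted p = 0.00751, adjusted p = 0.161). Nid2, which binds laminin gamma chains and collagen IV, read 6.29, 6.30 and 6.47 in the knockout arrays, against 6.14, 6.12 and 6.16 in wild type. Its difference was of the same size with the opposite sign, 0.21 ± 0.067 (SE) (limma, unadjusted p = 0.0122, adjusted p = 0.205). Its paralog Nid1 differed by 0.03 (95% interval -0.15 to 0.22) with overlapping groups. Dag1, which encodes dystroglycan, read 9.95, 9.95 and 9.89 in the knockout arrays, against 10.00, 9.98 and 10.04 in wild type, a difference of -0.08 (95% interval -0.21 to 0.05).

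**Figure D3:**
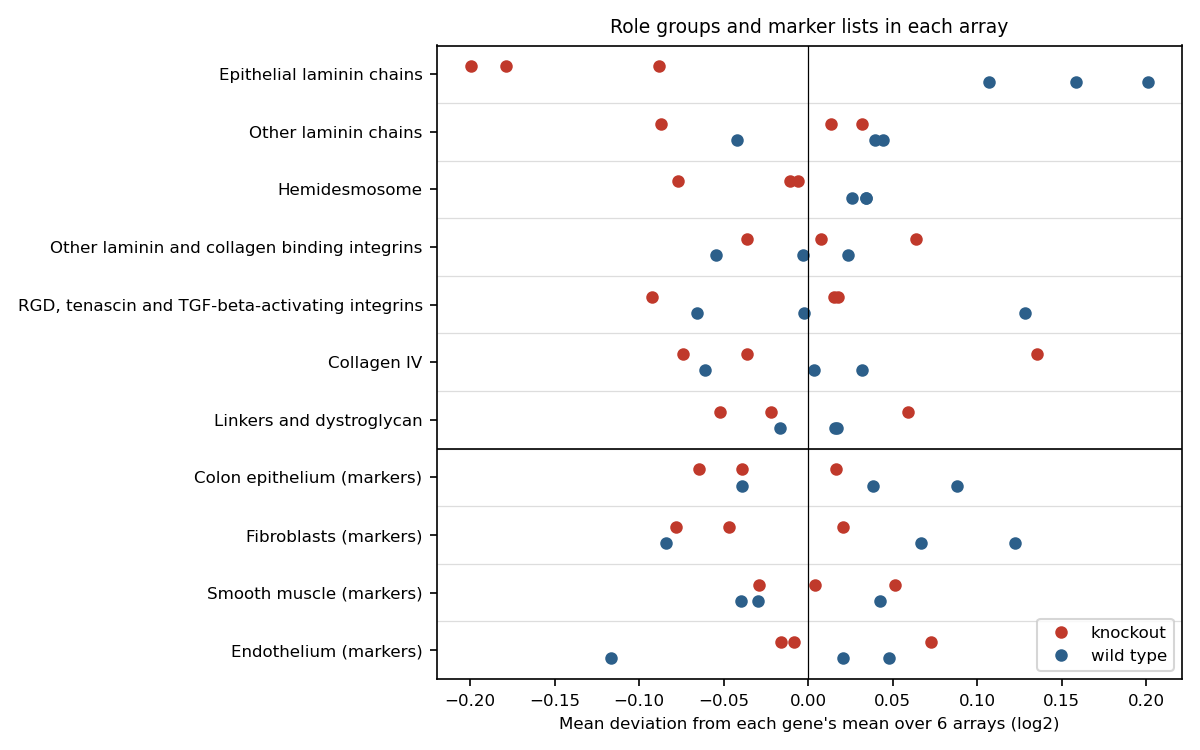
Mean deviation of a group of genes from each gene's own mean over the 6 arrays (horizontal axis, log2) in each array, knockout red and wild type blue, for the 7 role groups and, below the line, 4 lists of cell type markers. The epithelial laminin chains lie between -0.20 and -0.09 in the knockout and between 0.11 and 0.20 in wild type; the marker lists overlap between genotypes.

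Across arrays, the mean deviation of the epithelial laminin chains was -0.20, -0.18 and -0.09 in the knockout, against 0.20, 0.11 and 0.16 in wild type. The hemidesmosome group also lay apart, by much less, with -0.08, -0.01 and -0.01 in the knockout against 0.03, 0.03 and 0.03 in wild type. In the 5 other role groups the genotypes overlapped. In collagen IV, knockout array 3 stood highest at 0.14, with the other arrays between -0.07 and 0.03. These group values are descriptions and were not tested.

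Markers of colon epithelium and of cells beneath it were read in the same arrays, to check the labelled tissue. All 12 epithelial markers lay above the array median of 6.34, as did 8 of the 12 fibroblast markers and 10912 of all 19936 genes. This description rests on the brightness of the probe sets. None of the 12 epithelial markers was called. At an unadjusted p under 0.05 by limma 1 was higher and 4 lower, beside 13.3% of all genes in either direction. Without overlap 1 was higher and 5 lower, beside 19.4% of all genes. Differences were above 0 in 5 of the 12, up to 0.28, and below 0 in 7. Epcam, an epithelial adhesion molecule, read 11.15, 11.21 and 11.14 in the knockout arrays, against 11.41, 11.42 and 11.35 in wild type, a difference of -0.23 (95% interval -0.36 to -0.09, adjusted p = 0.124 by limma). Cdh1, which encodes E-cadherin, also differed by -0.23, and Slc26a3, the chloride exchanger of surface colonocytes, by -0.36. Epcam and Cdh1 passed without the dimmest 50% of genes (adjusted p = 0.0391 and 0.0381 by limma) and with an intensity trend (0.0202 and 0.0153). The median over the 12 markers was -0.05. The summed linear level of the 12 markers ran from 63136 to 66365 in the knockout and from 63921 to 69512 in wild type. How far the epithelial content of the preparations took part in the laminin differences was not tested.

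The 12 fibroblast markers had a summed linear level of 993 to 1071 in the knockout and 1014 to 1157 in wild type, and none was called, with 1 lower at an unadjusted p under 0.05 by limma. Dcn, a proteoglycan of fibroblasts, read 5.40, 5.34 and 5.55 in the knockout arrays, against 6.43, 5.24 and 6.12 in wild type, so it was high in wild type arrays 1 and 3 only. Pdgfrb, a growth factor receptor of mesenchymal cells, differed by -0.24 and Col1a2 by 0.11, both without a call. Of the 12 fibroblast differences 5 were above 0 and 7 below, and the median over the list was -0.01. Smooth muscle markers summed to 787 to 811 in the knockout against 769 to 796 in wild type, and endothelial markers to 442 to 476 in the knockout against 412 to 456 in wild type, with no gene called in either list. Of the 10 smooth muscle markers 1, Lmod1, was higher at an unadjusted p under 0.05 by limma, beside 13.3% of all genes in either direction. Without overlap 2 of the 10 were higher, near the share of 19.4% over all genes, and 4 of the 10 differences were below 0. None of the 10 endothelial markers reached that p or lay apart. An array reports no value of 0, and a dim probe set does not show that a transcript is absent.

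Genes that fold and export collagen in the ER were read next to the matrix genes themselves. P4hb, the beta subunit of collagen prolyl hydroxylase and a disulfide isomerase, rose by 0.57 ± 0.072 (SE) (limma, adjusted p = 0.0100), with 11.74, 11.65 and 11.64 in the knockout arrays against 11.04, 11.06 and 11.22 in wild type. Mia3, which encodes the ER exit receptor TANGO1 for bulky matrix cargo, rose by 0.56 ± 0.072 (SE) (limma, adjusted p = 0.0109), with 9.93, 9.86 and 9.75 in the knockout arrays against 9.27, 9.21 and 9.36 in wild type. P4hb lost its call without knockout array 1 (adjusted p = 0.0544 by limma) or wild type array 2 (0.0503), and Mia3 without knockout array 1 (0.0550), wild type array 1 (0.0514) or wild type array 2 (0.0517). The remaining genes of this list were not called, so that 2 of 13 measured genes were called higher and none lower, beside 1.63% of all genes called. At an unadjusted p under 0.05 by limma, 5 of the 13 were higher and 2 lower, beside 13.3% of all genes in either direction. Without overlap, 5 were higher and 1 lower, beside 19.4% of all genes. The median of the list was 0.06. Plod3, a lysyl hydroxylase, differed by -0.19. For comparison Hspa5, the ER chaperone BiP, rose by 0.85 ± 0.087 (SE) (limma, adjusted p = 0.00641).

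Genes on the cytoplasmic side of integrin adhesions were not called, 0 of 21, with 1 higher and 3 lower at an unadjusted p under 0.05 by limma and a median of 0.03. Vcl, which encodes vinculin, differed by -0.23, Ilk, integrin-linked kinase, by 0.16 and Actn4, an actin crosslinker, by -0.16. Among 8 measured enzymes that glycosylate dystroglycan none was called or reached an unadjusted p under 0.05 by limma, with differences from -0.09 to 0.16. Of 17 other basement membrane genes 1 was called, Hmcn1, which encodes the matrix protein hemicentin 1 and rose by 0.58 ± 0.11 (SE) (limma, adjusted p = 0.0479), and the median was 0.03. The Hmcn1 call ended on leaving out each array other than wild type array 3, with adjusted p of 0.0912 to 0.168 by limma, and with quantile normalization (0.0578) or the mean of its probe sets (0.0645). Tinagl1, a matrix glycoprotein, differed by -0.23 ± 0.061 (SE) (adjusted p = 0.135 by limma), with 9.66, 9.74 and 9.78 in the knockout arrays against 9.94, 10.00 and 9.92 in wild type. Npnt, a ligand of integrins in developing kidney, had a difference of 0.25 (adjusted p = 0.301 by limma).

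**Figure D4:**
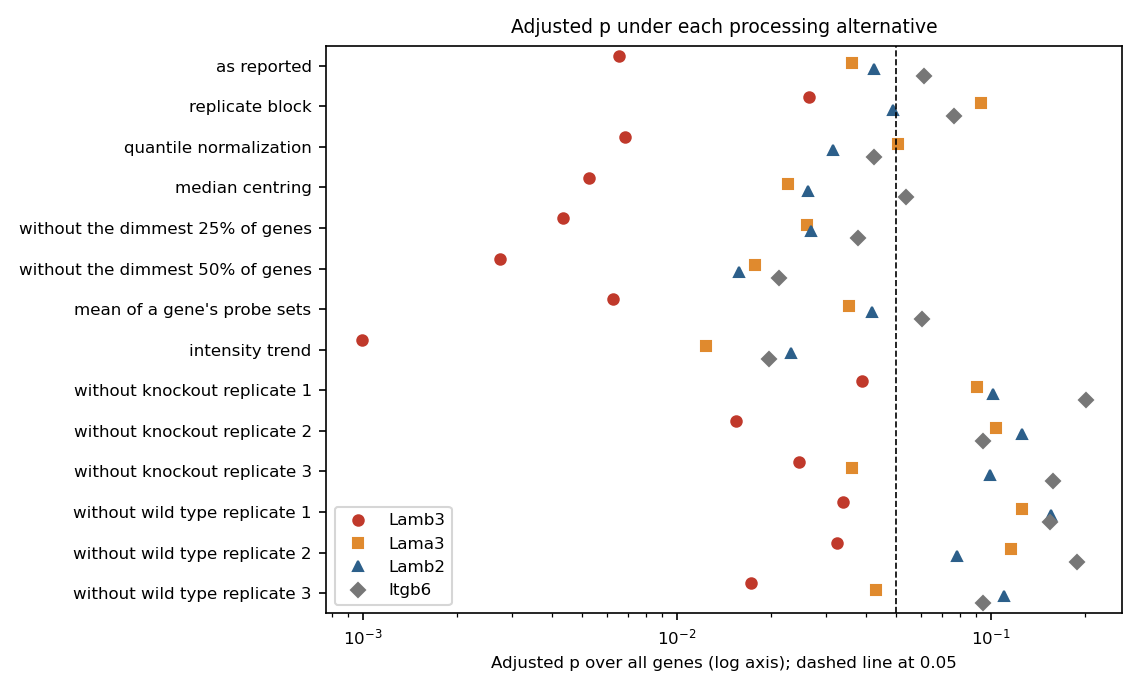
Adjusted p over all genes (horizontal axis, logarithmic) of Lamb3, Lama3, Lamb2 and Itgb6 as reported and under each of 13 processing alternatives, with a dashed line at 0.05. Lamb3 lies left of the line in every row; Lama3 and Lamb2 each cross it in 6 alternatives, and Itgb6 lies left of it in 4.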

How the data were processed

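Total RNA of 6 colon epithelium samples was labelled as cDNA and hybridised to Affymetrix arrays, per the labels' protocols. The deposited values are log2 levels per probe set, made by the authors with RMA, per the submitters' processing notes, and the values lie in a range that fits a log2 scale. Which software version, probe set definition and genome build they used is not given in the sources used here. Precision is limited by the number of arrays.

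Of 35556 probe sets, 21789 name 1 gene, 1621 several and 12146 none, and the first kind was used. Symbols were updated through RefSeq gene identifiers (21698 probe sets). For 19936 genes, 1001 with more than 1 probe set, the probe set with the highest mean was kept. No gene filter was applied. The model had 1 term, genotype, and was fitted with limma 3.58.1 (R 4.3.3), whose moderated two-sided test was adjusted by Benjamini-Hochberg over all genes. Python 3.11.15 with pandas 2.3.3, scipy 1.17.1 and matplotlib 3.10.9 did the rest.

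The fit was also run on simulated data, with gene means and noise taken from the real fit. There it called 7.46% of changes of 0.25 on the log2 scale, 88.1% of changes of 0.5 and 100% of changes of 1. Of its calls in the simulated data, 6.47% were false. The 38 members, the 7 role groups, the 6 lists of related genes and the 9 marker lists were chosen with earlier results of these data known. Genes with values per array are members called or with an unadjusted p under 0.05 and the member with the largest difference of each role group. Itgb4, Itga6, Lama5 and Dag1 are given beside them, chosen after their values were seen. Of each other list, up to 3 genes with the smallest p are named, with Sel1l, Hspa5 and Epcam in every case. Promoter stretches come from RefSeq. The 13 alternatives were quantile normalization, centring of each array on its median, a block for the replicate number, removal of the dimmest 25% or 50% of genes, averaging all probe sets of a gene, an intensity trend in the prior and the removal of each array. Scanner output and dates of hybridisation or scanning were not used here, so batch was not tested.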

Additional observations from a re-analysis of the deposited data

How the results depend on the processing

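Of all genes, 325 were called as reported, 598 without the dimmest 50% of genes and 614 with an intensity trend. Leaving out 1 array gave counts between 69 and 303: 69, 120 and 187 without knockout arrays 1, 2 and 3, and 96 and 95 without wild type arrays 1 and 2. With the replicate number as a block the count was 217, with Lamb3 and Lamb2 called and Lama3 not (adjusted p = 0.0930); same-numbered arrays deviated together with correlations of -0.104, 0.151 and 0.153, so they share only a number. Called members, 3 as reported, numbered 1 to 2 when 1 array was left out (Lamb3 alone without knockout array 1 or 2 or wild type array 1 or 2) and 4, with Itgb6, without the dimmest 25% or 50% of genes and with the trend. Lamb3 was called in each of the 13 alternatives, and Lama3 and Lamb2 in 7 of 13 each. With quantile normalization Lama3 was not called and Itgb6 was (adjusted p = 0.0425). In the fits without 1 array, Sel1l lay between -0.87 and -0.67 and was called in 2 of 6, and Lama4 lay between -0.19 and 0.0351, its value without knockout array 1; no other of the 13 members recomputed changed sign. Scaling moved the median of all genes to 0.002 (quantile) or -0.004 (centring), against 0.02. The median of the epithelial laminin chains was -0.52 without the dimmest 50% of genes, where 4 of the 6 were left, and that of the 4 linker genes, -0.02 as computed on all genes, was -0.14 there over the 2 left and 0.007 without knockout array 2. That of the other laminin chains was 0.0003 without the dimmest 25%. Tinagl1 also passed without the dimmest 50% of genes (adjusted p = 0.0455 by limma) and with the trend (0.0418), and Vcl without the dimmest 50% (0.0479). Background correction could not be varied on RMA values, and causes of these shifts were not tested.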

Other observations

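Integrins of leukocytes and other tissues outside the 38 genes were also read. Of 12, none was called or reached an unadjusted p under 0.05 by limma, with a median of -0.002. Itgae, the alpha subunit of intraepithelial lymphocytes that binds E-cadherin, read 5.66, 5.96 and 5.91 in the knockout arrays, against 6.12, 5.94 and 5.94 in wild type, and Itga10, a collagen receptor subunit of cartilage, differed by 0.12 (adjusted p = 0.431 by limma). Among enzymes and inhibitors that crosslink or cleave matrix, 0 of 12 were called and 3 were lower at an unadjusted p under 0.05 by limma: Timp3, an inhibitor of metalloproteinases (-0.28), and the sheddases Adam17 (-0.23) and Adam10 (-0.17). All 3 had knockout arrays below every wild type array, and 2 others of the 12 were higher without overlap. Over all genes 13.3% had an unadjusted p under 0.05 by limma and 19.4% did not overlap.

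Hmcn1, a very large gene, is named by 77 separate probe sets of this array. The brightest, used above, gave 9.05, 8.94 and 9.17 in the knockout arrays against 8.37, 8.32 and 8.72 in wild type. The mean of all of them differed by 0.33 (adjusted p = 0.0645 by limma). Of the 77, 73 had a difference above 0 and 60 an unadjusted p under 0.05, with a median difference of 0.36 and a range from -0.15 to 0.60. These probe sets read the same 6 samples and are not replicates. Their mean levels ran from 3.55 to 8.76, and what each of them covers was not analysed here.

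Of the remaining marker lists, none of the markers of glia and nerve, macrophages and dendritic cells, T cells or B and plasma cells was called. Among 5 neutrophil markers Ly6g fell by 1.09 ± 0.15 (SE) on the log2 scale (limma, adjusted p = 0.0144) while the other 4 differences were above 0, S100a8 and S100a9 among them, both at 0.21. Ly6g lost its call without knockout array 1 (adjusted p = 0.0589 by limma), knockout array 2 (0.0643), wild type array 1 (0.0580) or wild type array 2 (0.0567). The summed level of the neutrophil list was 1644 to 2417 in the knockout and 3552 to 4648 in wild type, nearly all of it from Ly6g. Without Ly6g it was 123 to 131 in the knockout and 108 to 118 in wild type. Ly6g is 1 of a family of similar genes that its probe set may also read.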
